A study of Mus musculus with 8 samples.

Results

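Complement genes of the spleen and the complement receptor gene Vsig4 were examined in mice that carry a transgene for the architectural chromatin protein HMGA1a (TG), and in wild type littermates (WT). From a list of 9 symbols, the probe sets annotated to each symbol alone were taken, and each gene was read from its brightest probe set, by the mean of the 8 arrays. This gave 7 genes, C1qa, C1qb, C1qc, Cfp, Cfb, C6 and Vsig4, of 18193 genes with a probe set of their own on the array and 11189 genes tested. The listed symbols C3 and C4b had no probe set annotated to them alone in the annotation used, and they were not analysed here as genes of the set. RNA of spleen cells from 8 male C57/BL6 mice was measured on Affymetrix mouse arrays, 1 array per mouse. The 4 groups were HMGA1a transgenic mice of 12 months, wild type mice of 12 months, HMGA1a transgenic mice of 2 months and wild type mice of 2 months, with 2 mice each, labelled biologic replicate 1 and 2. By the design text of the series, the lymphoid tumours that all TG mice develop are established at 12 months and have not yet formed at 2 months. The promoter of the transgene and the number of founder lines are not given in the sources used here.

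Complement is a cascade of plasma proteins that marks microbes and dying cells for uptake and can pierce membranes. The classical pathway starts with C1q, a hexamer built of the C1qa, C1qb and C1qc chains, which macrophages and dendritic cells make in the spleen. The alternative pathway depends on the protease factor B (Cfb) and on properdin (Cfp), which stabilises the convertase that factor B forms and is made by myeloid cells. C6 is a subunit of the membrane attack complex and comes mainly from the liver. Vsig4, also called CRIg, is a macrophage receptor that binds the fragments C3b and iC3b and inhibits the alternative pathway convertase.

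Levels are given as linear probe set signals, and fold changes were taken on the log2(signal + 16) scale, which understates changes of dim genes. Median array signals were 44.9 to 49.5. B cell and T cell markers were present on every array, with the lowest signal of any B cell marker at 99.5 and of any T cell marker at 233. Of the 6 hepatocyte markers on the array, none passed the filter on dim probe sets, and their highest signal on any array was 50.8. The array of the replicate 1 WT mouse of 2 months stood apart by its exocrine pancreas genes, with a summed signal of 12601 for 6 genes against 565 to 848 on the other arrays. Values without it are given beside the main results of the comparisons that use it. Across genes, the difference between replicate 2 and replicate 1 was shared by all groups (r from 0.464 to 0.654), and differences within each replicate number are therefore given beside the pooled ones.

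The promoters of Vsig4 and C6 are shown because these genes had the largest differences, and those of C1qb and C1qc because these neighbouring genes on chromosome 4 varied together. Each window runs from 250 bases before to 50 bases after the annotated start, 5′ to 3′ on the strand of the gene, from RefSeq on GRCm38.p6. The windows are chrX:96293389-96293688 on the minus strand for Vsig4, chr15:4726960-4727259 on the plus strand for C6, chr4:136886151-136886450 on the minus strand for C1qb and chr4:136892865-136893164 on the minus strand for C1qc. Capitals mark matches, on either strand, to GAGGAA, the core bound by PU.1 and other ETS factors of myeloid cells, or to TGCTGA, a core of the sites of MAF factors.
Vsig4: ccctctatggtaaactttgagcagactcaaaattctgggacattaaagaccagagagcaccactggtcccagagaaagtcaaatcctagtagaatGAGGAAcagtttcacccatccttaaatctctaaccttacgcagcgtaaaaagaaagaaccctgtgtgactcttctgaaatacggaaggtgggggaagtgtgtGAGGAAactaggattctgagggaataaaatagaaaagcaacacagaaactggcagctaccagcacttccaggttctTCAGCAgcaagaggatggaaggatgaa
C6: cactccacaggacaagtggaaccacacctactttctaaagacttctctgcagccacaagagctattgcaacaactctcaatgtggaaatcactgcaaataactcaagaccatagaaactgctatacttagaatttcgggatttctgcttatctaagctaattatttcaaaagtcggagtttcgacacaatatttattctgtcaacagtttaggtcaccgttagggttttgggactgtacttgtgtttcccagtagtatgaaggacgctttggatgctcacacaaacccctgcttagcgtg
C1qb: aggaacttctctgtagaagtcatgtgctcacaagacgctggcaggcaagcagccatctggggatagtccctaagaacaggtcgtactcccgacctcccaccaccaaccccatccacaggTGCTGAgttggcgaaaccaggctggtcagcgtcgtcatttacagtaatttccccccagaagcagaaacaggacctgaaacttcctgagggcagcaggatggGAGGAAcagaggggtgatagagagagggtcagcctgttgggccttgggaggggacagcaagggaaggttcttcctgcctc
C1qc: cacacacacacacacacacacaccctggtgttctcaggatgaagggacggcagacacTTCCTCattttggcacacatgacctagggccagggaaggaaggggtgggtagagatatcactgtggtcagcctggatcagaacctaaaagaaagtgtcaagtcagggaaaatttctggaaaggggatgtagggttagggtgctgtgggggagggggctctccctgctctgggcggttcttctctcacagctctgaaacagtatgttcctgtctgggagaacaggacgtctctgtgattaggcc
The Vsig4 window held GAGGAA at 2 places and TGCTGA at 1, none of which overlap. GAGGAA was found at 1 place in each of the C1q windows, and the C1qb window also held TGCTGA at 1 place. The C6 window held neither. These motifs are common, with GAGGAA in 28.3% and TGCTGA in 19.5% of 32851 promoters of the same length. TATAAA (13.6% of promoters), the C/EBP pattern TTGCNNAA (10.8%) and the interferon response element ISRE (3.44%) matched none of these 4 windows. HMGA proteins bind AT-rich stretches of DNA. Adenine and thymine made up 58.3% of the C6 window, 55.7% of that of Vsig4, 46.7% of that of C1qc and 43.7% of that of C1qb, where the median of all promoters was 47.3%. Promoters of C1qa and Cfb were not printed here. That of Cfp held GAGGAA at 2 places and was 51.0% adenine and thymine. Of all promoters, 85.9% had a lower share than the C6 window, 78.9% than that of Vsig4 and 63.2% than that of Cfp. A part of this base content in the differences below was not tested.

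TG mice were compared with WT mice at 12 months to ask which of these genes differ once tumours are established. Vsig4 was higher in both TG spleens, C6 was lower in both, and the values of the C1q chains and properdin overlapped between the groups. None of the 7 genes passed the test (limma, Benjamini-Hochberg over all genes, threshold 0.05), nor did any of the 11189 genes (0% called), while 865 genes (7.73%) had an unadjusted p under 0.05. Of the 7 genes, 2 had an unadjusted p under 0.05, Vsig4 and C6, and with the replicate number as a block 3 had, C1qc among them, where 19.9% of all genes had. The groups did not overlap for 3 genes, with Vsig4 and Cfb above and C6 below the WT mice. Over all genes tested, 14.3% lay wholly above and 19.9% wholly below. The median log2 fold change of the 7 genes was -0.13, with 2 higher and 5 lower, beside a median of -0.03 over all genes.

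**Figure D1:**
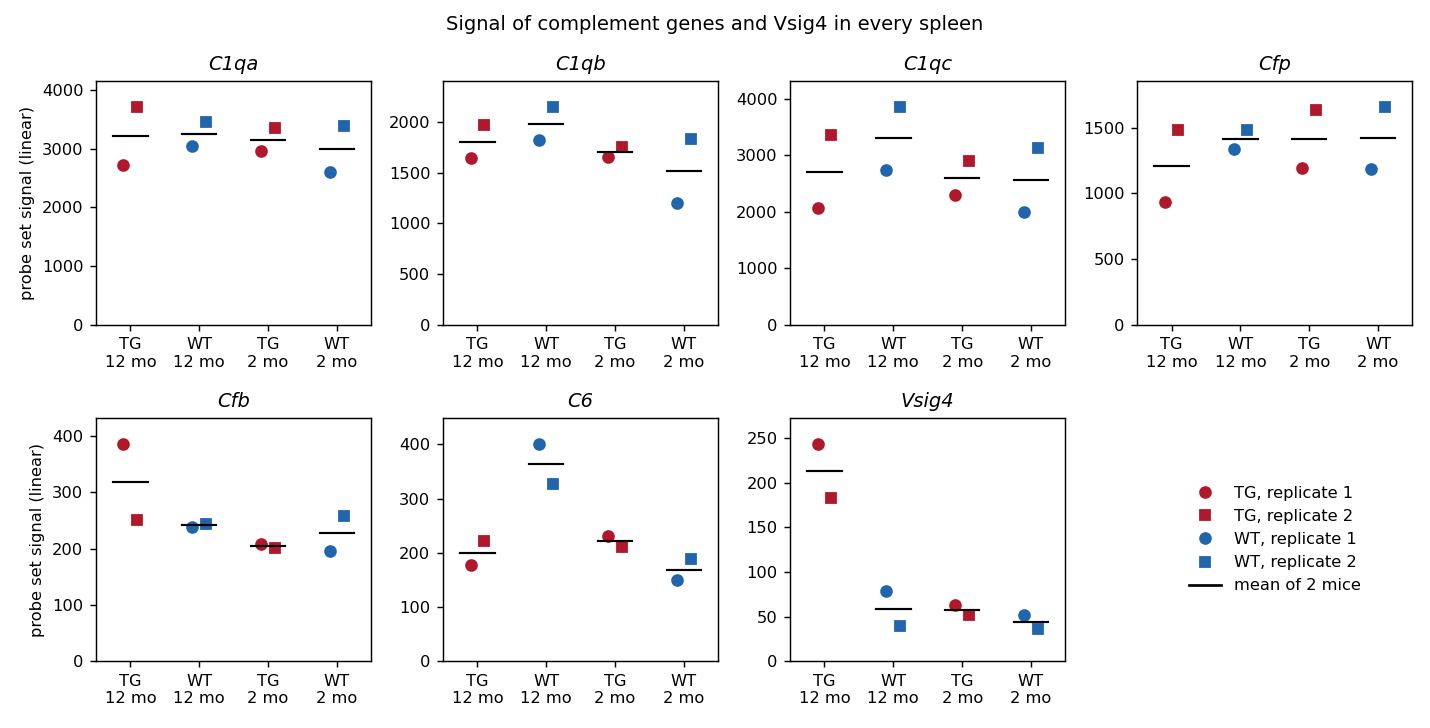
Probe set signal (linear scale, from 0) of the 7 genes in each of the 8 spleens, by genotype and age; circles are replicate 1, squares replicate 2, and the line is the mean of 2 mice. Vsig4 stood at 243 and 183 in TG mice of 12 months and at 78.2 or lower in every other mouse, and C6 was highest in the WT mice of 12 months.

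Vsig4 had signals of 243 and 183 in the TG mice of 12 months, against 78.2 and 39.4 in the WT mice of that age. Both TG values lay above every other array of the study, whose signals ran down to 36.0. The log2 fold change was 1.65 ± 0.31 (SE, n = 2 per group), or 3.14-fold with a 95% confidence interval of 1.92 to 5.15 (limma, adjusted p = 0.551). The replicate 1 pair of mice differed by 1.46 and the replicate 2 pair by 1.84. Among the 11189 genes it had the fourteenth smallest p and a fold change at percentile 99.9. With the replicate number as a block the adjusted p was 0.0594 (limma), which also missed the threshold. The signals were modest for this array, at percentiles 80.9 and 76.2 of all probe sets in the TG mice and at 60.6 and 45.1 in the WT mice. Without the 2 TG arrays of 12 months the mean log2 value of Vsig4 was 6.09, still over the filter at 5.94.

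C6 had signals of 178 and 222 in the TG mice of 12 months, against 401 and 327 in the WT mice. The groups did not overlap, and the WT values were the highest of the study. The log2 fold change was -0.81 ± 0.21 (SE, n = 2 per group; 95% confidence interval -1.30 to -0.33), with -1.10 within replicate 1 and -0.53 within replicate 2 (limma, adjusted p = 0.586, and 0.106 with the replicate block). When the array of the replicate 2 TG mouse of 12 months was left out, the blocked values were 1.62 for Vsig4 and -0.98 for C6. Without the replicate 1 TG mouse of 12 months they were 1.69 and -0.65. Each of these fits rests on 1 TG mouse of 12 months, so only the values are given. With an array of any other group left out, the blocked fit called neither gene.

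The 3 chains of C1q were among the brightest signals of the spleen, between percentiles 96.6 and 99.2 of all probe sets on every array. C1qa had signals of 2719 and 3712 in the TG mice of 12 months, against 3049 and 3463 in the WT mice. C1qb had 1641 and 1974 in TG mice, against 1821 and 2147 in WT mice. C1qc had 2073 and 3354 in TG mice, against 2746 and 3855 in WT mice. The groups overlapped for all 3 chains. Log2 fold changes were -0.03 for C1qa, -0.13 for C1qb and -0.30 for C1qc, with 95% confidence intervals of -0.56 to 0.49, -0.68 to 0.41 and -1.04 to 0.44 (limma, adjusted p = 0.992, 0.941 and 0.894). C1qc was lower in the TG mouse of both replicate pairs, by -0.40 and -0.20, and its adjusted p with the block was 0.217. For C1qa the interval runs from 0.680-fold to 1.41-fold, so equal levels were not shown.

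The alternative pathway genes split by mouse. Cfb, the gene of factor B, had signals of 386 and 251 in the TG mice of 12 months, against 238 and 244 in the WT mice. Both TG values were higher, yet the replicate 1 TG mouse alone stood clear, with a difference of 0.66 within replicate 1 and 0.04 within replicate 2. The log2 fold change was 0.35 ± 0.24 (limma, adjusted p = 0.779), and 0.055 without that mouse. Cfp, the gene of properdin, had 936 and 1485 in TG mice, against 1338 and 1484 in WT mice. Here the replicate 1 TG mouse had the lowest signal of all arrays, and the groups overlapped (log2 fold change -0.25 ± 0.28, limma adjusted p = 0.900; 0.075 without that mouse). Cfp differed by -0.51 within replicate 1 and by 0.0005 within replicate 2. In the fit with the replicate block and without that mouse, Cfp stood at -0.10 and Cfb at -0.0038.

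**Figure D2:**
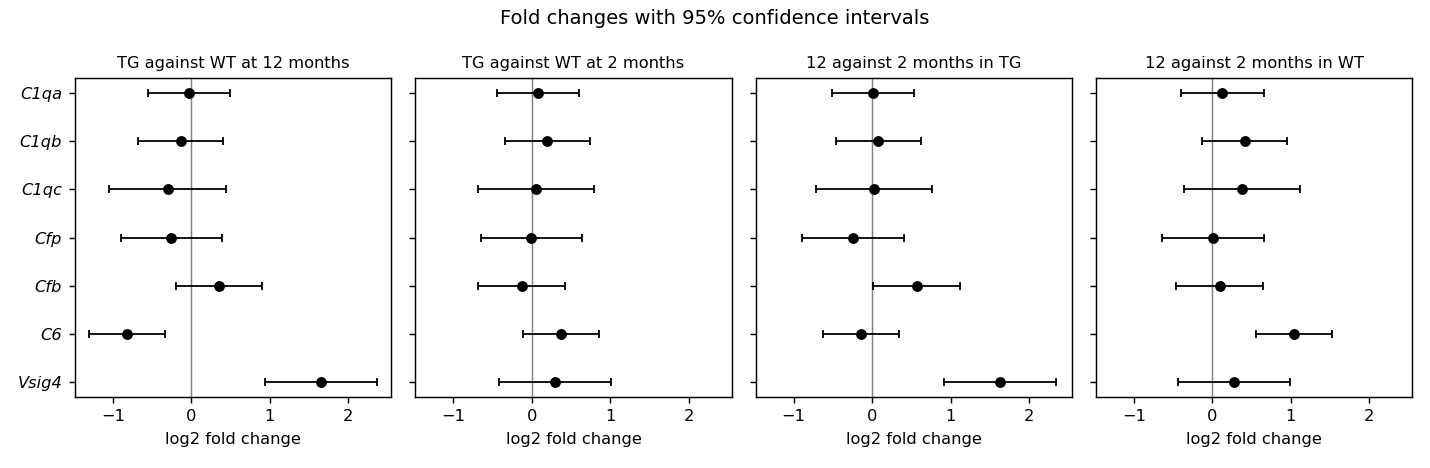
Log2 fold changes (points) with 95% confidence intervals (bars, limma) of the 7 genes in 4 comparisons, tested over reference as named in each panel title. The intervals of Vsig4 at 12 months, of C6 at 12 months and with age in WT mice, and of Vsig4 and Cfb with age in TG mice exclude 0 before adjustment for multiple tests.

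At 2 months, before tumours, none of the 7 genes passed the test between TG and WT mice (0% of genes called). None had an unadjusted p under 0.05, where 0.393% of all genes did. The 95% confidence intervals ran from -0.41 to 1.01 for Vsig4, -0.11 to 0.86 for C6 and -0.69 to 0.79 for C1qc. Equal levels were thus not shown. Fold changes of C6 and Vsig4 lay at percentiles 97.1 and 94.8 of all genes. Vsig4 had signals of 62.9 and 52.3 in TG mice, against 52.4 and 36.0 in WT mice, and was higher in TG mice within both replicates (0.21 and 0.39; log2 fold change 0.30 ± 0.31, limma adjusted p = 1.00; 0.50 without the WT mouse with pancreas signal). The lower TG value and the higher WT value were nearly equal. C6 had 232 and 211 in TG mice, against 149 and 188 in WT mice. It was the only one of the 7 genes whose groups did not overlap at this age, where 10.1% of all genes lay wholly above (log2 fold change 0.37 ± 0.21, limma adjusted p = 1.00), and the value was 0.22 without the WT mouse with pancreas signal. Log2 fold changes of the other 5 genes lay between -0.13 for Cfb and 0.20 for C1qb. Without that mouse they lay between -0.31 for Cfb and -0.10 for C1qa and C1qb. That fit set TG mice of both replicates against the replicate 2 WT mouse alone. In the fit with the replicate block and without that mouse, C1qa stood at 0.032, C1qb at -0.0050 and C1qc at -0.021. There Cfp stood at -0.033, Cfb at -0.41, Vsig4 at 0.27 and C6 at 0.20.

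The difference between the TG effects at 12 and at 2 months was tested as an interaction. It was 1.35 ± 0.44 for Vsig4 and -1.19 ± 0.30 for C6, each with an unadjusted p under 0.05, which 1.9% of all genes had (limma, adjusted p = 1.00 for both, and 0.598 for both with the replicate block). Without the WT mouse with pancreas signal the values were 1.16 and -1.03, and 1.38 and -1.02 in the fit with the replicate block. C6 was thus above WT in the young TG mice and below WT in the old ones, and its interaction p was the eighth smallest of all genes.

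Age was then compared within each genotype, 12 with 2 months. These comparisons share arrays with those above and are no separate evidence. In TG mice Vsig4 was higher at 12 months, at 243 and 183 against 62.9 and 52.3, and the log2 fold change was 1.63 ± 0.31 (1.72 and 1.54 in replicates 1 and 2). It missed the test without a block (limma, adjusted p = 0.419; 0.00894% of genes called, and 4.72% with an unadjusted p under 0.05). With the replicate number as a block it passed (limma, adjusted p = 0.0326), 1 of 21 genes called (0.188%). The fit without the replicate 2 TG mouse of 12 months leaves 1 mouse in the older TG group. Only its value is therefore given, 1.59. The call was lost when any of the other 7 arrays was left out. Cfb was also higher in TG mice at 12 months, at 386 and 251 against 209 and 201. Its groups did not overlap, where 10.3% of all genes lay wholly above, as Vsig4 did (log2 fold change 0.57 ± 0.24, limma adjusted p = 1.00). The replicate 1 pair differed by 0.84 and the replicate 2 pair by 0.30, and leaving out the older TG mouse of replicate 1 gave 0.27. C6 did not separate the ages in TG mice, at 178 and 222 against 232 and 211 (-0.14 ± 0.21).

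In WT mice the largest value with age was that of C6. C6 had signals of 401 and 327 at 12 months, against 149 and 188 at 2 months, a log2 fold change of 1.04 ± 0.21 (1.34 and 0.75 in replicates 1 and 2). This was the second smallest p of all genes, although it missed the test (limma, adjusted p = 1.00, and 0.558 with the replicate block; 0% of genes called, and 1.53% with an unadjusted p under 0.05). The groups did not overlap, where 12.7% of all genes lay wholly above. The value was 0.89 without the WT mouse with pancreas signal. Vsig4 had 78.2 and 39.4 at 12 months, against 52.4 and 36.0 at 2 months, and the groups overlapped (0.28 ± 0.31). All 7 genes had a positive value, that of Cfp at 0.006, with a median of 0.28, beside 0.01 over all genes. Of all genes, 51.4% were higher. The values of C1qa, Cfb and Cfp turned negative without the WT mouse with pancreas signal, at -0.059, -0.092 and -0.23. In the fit with the replicate block and without that mouse they were 0.074, -0.19 and -0.021. C1qb (0.41 ± 0.23) and C1qc (0.38 ± 0.32) stood at 0.11 and 0.055 without the replicate 1 WT mouse of 2 months, and at 0.21 and 0.31 without it in the fit with the replicate block. Vsig4 stood at 0.47 without it, and at 0.25 without it in the fit with the replicate block.

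Ordered by mean signal, Vsig4 stood at 213 ± 42.7 in TG mice of 12 months, 58.8 ± 27.5 in WT mice of 12 months, 57.6 ± 7.45 in TG mice of 2 months and 44.2 ± 11.6 in WT mice of 2 months (SD, n = 2 each). The values of the 2 mice overlapped between each pair of neighbours in this order except the first pair. C6 stood at 364 ± 52.2 in WT mice of 12 months, 222 ± 14.5 in TG mice of 2 months, 200.3 ± 31.3 in TG mice of 12 months and 169 ± 27.4 in WT mice of 2 months. Here too the first pair of neighbours did not overlap and the following pairs did.

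The replicate number shifted several of these genes in every group. C1qa, C1qb, C1qc and Cfp were higher in the replicate 2 mouse of all 4 groups, and Vsig4 was lower in it, where 25.9% of all genes were higher and 21.4% lower in that way. The mean difference was 0.54 for C1qc, 0.43 for Cfp, 0.30 for C1qb and 0.29 for C1qa on the log2 scale. The probe sets of C1qb disagreed on this. The probe set used here had values from 0.09 to 0.60, whereas both others, with the suffix x_at, were lower in replicate 2, at -0.42 to -0.86 and -0.15 to -0.43. That suffix marks probe sets with probes that may bind other transcripts. At 12 months the 3 probe sets were alike in having lower values in TG mice within both replicates, at -0.15 and -0.12, -0.32 and -0.10, and -0.23 and -0.06. The second probe set of Cfp was dim, with signals from 67.4 to 133, and had differences of -0.32 and -0.17 at 12 months.

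**Figure D3:**
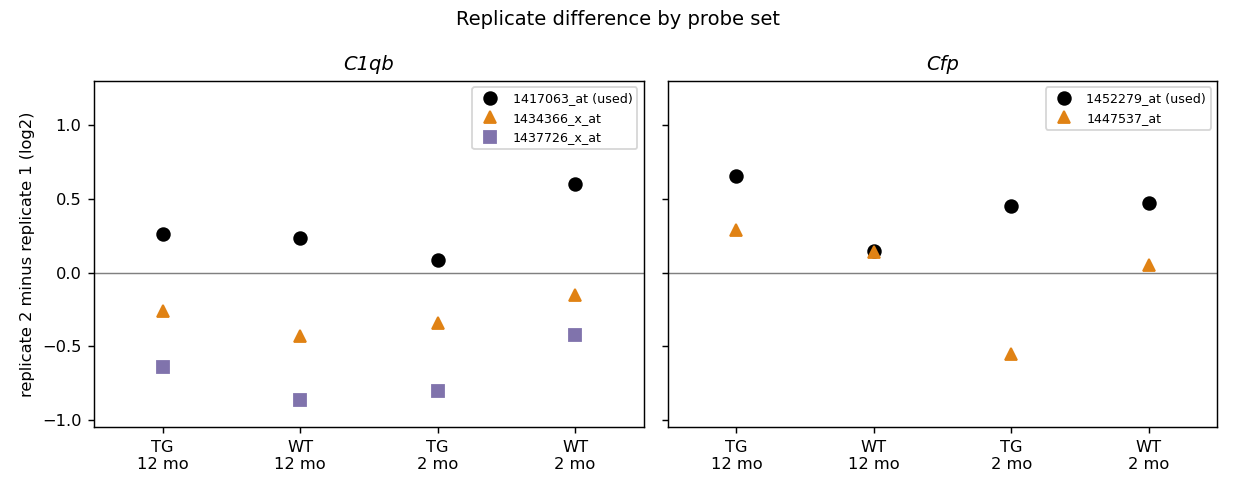
Replicate 2 minus replicate 1 (log2 scale) in each group for every probe set of C1qb (left) and Cfp (right); the probe set that stood for the gene is in black. The black C1qb points lie above 0 in all 4 groups, and those of the x_at probe sets lie below 0.

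Across the 8 arrays the 3 C1q chains varied together, with r of 0.839 for C1qa and C1qb, 0.934 for C1qa and C1qc and 0.874 for C1qb and C1qc. C1qb was read here from its chosen probe set alone. Its x_at probe sets were lower in replicate 2 in every group, where C1qa and C1qc were higher. The points of the 8 arrays share the replicate difference, and once the mean of each replicate number was taken off, r was 0.756, 0.736 and 0.811. On that scale C6 varied with C1qc (r = 0.942), C1qb (0.809) and C1qa (0.715), and Vsig4 with Cfb (0.687) but not with the C1q chains (-0.10 to 0.27). Cfp varied there in the opposite direction to Vsig4 (-0.681) and to Cfb (-0.751). The genes whose log2 values were most like those of Vsig4 over 8 arrays were the integrin gene Itgb1 (r = 0.979), Chordc1 (0.976) and Twsg1 (0.974). With the replicate means taken off they were Itgb1 (0.992), Ccdc115 (0.988) and Plscr1 (0.986). For C6 they were the kinase gene Mapk8 (0.929), the endotoxin co-receptor gene Cd14 (0.927) and Fam174b (0.918). They were Smoc2 (0.994), Hdac5 (0.989) and Fbxo6 (0.987) for Cfp, Ran (0.962), S1pr2 (0.955) and Cpxm1 (0.952) for Cfb, and P2ry4 (0.989), Zfp787 (0.973) and Usp47 (0.962) for the mean of the C1q chains. Arrays of 1 group and 1 replicate number are not independent points, and these correlations are descriptions.

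Macrophage markers were set beside Vsig4 at 12 months, where 45.2% of all genes were higher in TG mice. Of 14 tested markers of red pulp, marginal zone and tissue macrophages 10 were lower in TG mice and 4 higher, with a median of -0.52 (-0.97 and -0.16 in replicates 1 and 2), and their summed signal was 9512 and 17279 in TG mice, against 20167 and 19490 in WT mice. Of 13 tested markers of macrophages and monocytes 7 were lower and 6 higher (median -0.04), with sums of 16377 and 20051 in TG mice and 21138 and 22734 in WT mice. None of these markers passed the test, none was listed at 0 on any array, and the lowest signals of tested ones were those of Cd209d (15.8) and Folr2 (16.6). Msr1, a scavenger receptor gene, had the positive value nearest to that of Vsig4 in these lists (1.06, with 1.14 and 0.97 within the replicates). It passed the filter only through the TG mice of 12 months, with a mean log2 value of 6.05, and of 5.80 without them, so its value is a description. The genes most below WT were Marco (-1.92), Cd14 (-1.38) and Cd209b (-1.32). The replicate 1 TG mouse carried most of the Marco value, with -3.20 in replicate 1 and -0.64 in replicate 2, against -1.52 and -1.11 for Cd209b and -1.93 and -0.84 for Cd14. In bulk RNA a change in the number of cells of a type and a change in RNA per cell cannot be told apart, for any of the 7 genes.

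**Figure D4:**
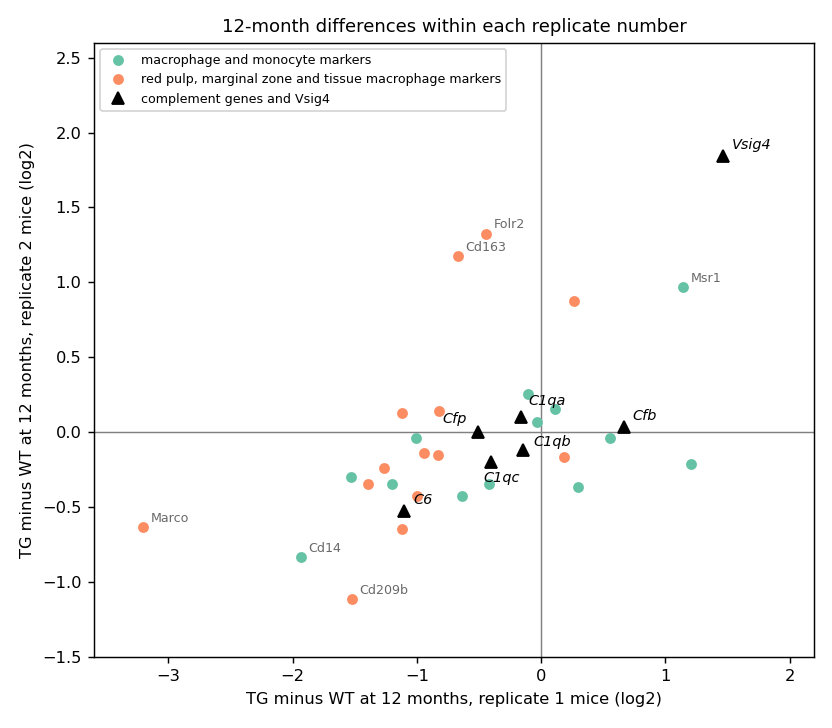
Difference between the TG and WT mouse of 12 months on the log2 scale within replicate 1 (horizontal axis) and within replicate 2 (vertical axis) for 27 macrophage markers (circles) and the 7 genes described here (triangles). Vsig4 lies at 1.46 and 1.84, C6 at -1.10 and -0.53, and most markers lie left of 0.

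Other cell types were set beside the genes that they can make. Stroma and follicular dendritic cell markers had 4 genes higher and 7 lower at 12 months (median -0.13), with sums of 9505 and 9170 in TG mice, against 10440 and 9605 in WT mice, and their part in the lower C6 signal was not tested. Neutrophil markers, of cells that store properdin, had sums of 9652 and 21734 in TG mice, against 10604 and 6077 in WT mice of 12 months. Of 12 such markers 10 were higher in TG mice (median 0.86, with -0.09 and 1.74 in replicates 1 and 2), none passed the test, and Cfp had -0.25. The mouse with the lower sum had the lower Cfp signal among TG mice and the higher one among WT mice. Their part in it was not tested. Dendritic cell markers were lower for 8 of 8 genes at 12 months (median -0.57), with sums of 2751 and 2745 in TG mice, against 4036 and 4199 in WT mice, and none passed the test. The Gapdh control ratio (3′ over 5′ end), a sign of RNA quality, was 0.843 and 1.21 in TG mice and 1.25 and 1.73 in WT mice of 12 months, and its part in these differences was not tested.

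Of 52 further complement genes listed by role, 42 had a probe set of their own and 20 passed the filter. At 12 months 7 of the 20 were higher and 13 lower in TG mice (median -0.12). None passed the test without a block, and 1, Cr2, did with it (limma, adjusted p = 0.0255), where 0.0447% of all genes did. Initiation genes other than C1q had 1 gene higher and 6 lower. Fcna, the gene of the lectin pathway protein ficolin A, had signals of 632 and 2368 in TG mice of 12 months, against 2607 and 2895 in WT mice. The difference was -2.02 within replicate 1 and -0.29 within replicate 2, so the replicate 1 TG mouse carried most of it (log2 fold change -1.15 ± 0.51, limma adjusted p = 0.645).

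Among 7 complement receptor genes 3 were higher and 4 lower. Cr2, the receptor for C3d on B cells and follicular dendritic cells, had 425 and 564 in TG mice, against 1352 and 1607 in WT mice (log2 fold change -1.56 ± 0.20). Of 7 B cell markers 6 were lower in TG mice (median -0.36), and Fcer2a passed the test with the block (-1.48, limma adjusted p = 0.0255). Their sums were 11684 and 22800 in TG mice, against 16533 and 23091 in WT mice, and their part in the Cr2 value was not tested. Of 8 T cell markers 7 were higher (median 0.69), with sums of 8372 and 4127 in TG mice, against 3175 and 3888 in WT mice. C1qbp, which encodes a mitochondrial protein first isolated as a C1q binding protein, had 3397 and 2997 in TG mice, against 2126 and 2317 in WT mice (0.52 ± 0.17, limma adjusted p = 0.590). Itgax, the alpha chain of complement receptor CR4 and a dendritic cell integrin, had 631 and 703 in TG mice, against 777 and 1144 in WT mice (-0.49 ± 0.24, adjusted p = 0.685). Neither C1qbp nor Itgax passed the test.

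The 6 tested regulators had 3 genes higher and 3 lower at 12 months, and none passed the test. Those of the cell surface were split, with Cd55, which speeds convertase decay, at 274 and 423 in TG mice, against 471 and 519 in WT mice. Cr1l, the rodent regulator Crry, stood at 692 and 817 in TG mice, against 584 and 679 in WT mice. Of the terminal pathway 5 genes other than C6 were on the array under the symbols listed, and none passed the filter. In all, 22 of the 42 genes lay under the filter, with signals of at most 71.8. At 2 months 10 of the 20 tested genes were higher and 10 lower, with a median of -0.0039, and the smallest p belonged to Cr2 (-0.27 ± 0.20), Cd93 (-0.21), Cd55 (-0.25) and the integrin gene Itgam (-0.24), none of which passed the test (limma, adjusted p = 1.00).

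A probe set annotated to both C4a and C4b could be assigned to neither gene and was not counted in the set. Its signals were 1460 and 1513 in TG mice of 12 months, against 1896 and 2233 in WT mice, with lower TG values within both replicates (-0.37 and -0.56). At 2 months it had 1334 and 1511 in TG mice, against 1314 and 1750 in WT mice, and the groups overlapped.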

How the data were processed

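The authors deposited linear intensities of probe sets for 8 arrays. GCOS 1.4 and MAS5 are named in the submitters' processing notes, and the 2% trimmed mean of every array was 150.001. The annotation gave 1 symbol to 34945 of 45101 probe sets, several to 932 and none to 9160, and 64 were controls; symbols were updated through gene identifiers for 34741. Probe sets with a mean log2(signal + 16) under the median of 5.94 were dropped, and the brightest stood for each gene (11189 genes). A model of 4 group means was fitted with limma 3.58.1 in R 4.3.3 (lmFit, eBayes with an intensity trend), two-sided, with Benjamini-Hochberg adjustment over all genes and a threshold of 0.05. Its estimates were checked on simulated data in which the arrays shared no replicate difference. That check does not measure the error rate of the test on arrays that share one. No block was used; differences between replicate numbers correlated across genes in all 6 pairs of groups (r from 0.464 to 0.654), so the replicate number as a block was set beside it. The labels call the replicates biologic, and the number of arrays limits precision. Alternatives covered the offset, filter, scaling, probe set choice, model and each array left out; leaving out arrays within the blocked fit was added after the data were seen. The named genes were the listed members, the 4 other complement genes with the smallest p in each comparison of TG with WT, and the 3 genes with the highest correlation to a member; Cr1l and the markers named beside these were chosen for their role or value. The members and lists were chosen with earlier results of these data known. Promoter sequences are from RefSeq, and the level of Hmga1 was not analysed here.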

Additional observations from a re-analysis of the deposited data

Results flagged for a closer look

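C6 was higher in both TG mice than in both WT mice at 2 months and lower in both TG mice at 12 months. The measured differences thus had opposite signs at the 2 ages, but a reversal of the transgenic effect was not shown. At 2 months the confidence interval (limma) ran from -0.11 to 0.86, and 10.1% of all genes lay wholly above WT. The value at that age was 0.37, and 0.22 without the WT mouse with pancreas signal. The difference of the effects was -1.19 ± 0.30 on the log2 scale, and it missed the test (limma, adjusted p = 1.00). Within replicate 1 the effects were -1.10 at 12 months and 0.58 at 2 months, and within replicate 2 they were -0.53 and 0.16.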

How the results depend on the processing

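Of 35 fold changes (7 genes in 5 comparisons), 4 changed sign under a setting that left out no replicate. The count of these 7 genes past the test was 0 in every comparison and stayed 0 with the other offsets, filters, scalings and models. With the replicate block it was 1 for 12 against 2 months in TG mice (Vsig4) and 0 elsewhere. With the block and 1 array left out, none of the 7 genes passed in fits that kept the replicate 2 TG mouse of 12 months. The fits without that mouse leave 1 mouse in its group, so their counts are not given. Quantile and loess scaling turned the change with age in TG mice of C1qa (-0.064 and -0.041) and C1qc (-0.047 and -0.018), quantile scaling that of Cfp at 2 months (0.0011), and averaging probe sets that of Cfp with age in WT mice (-0.16). With 1 array left out of the fit without a block, 19 of the 35 values changed sign. For TG against WT at 12 months the ranges were -0.26 to 0.19 for C1qa, -0.65 to 0.044 for C1qc and -0.58 to 0.075 for Cfp. At 2 months they were -0.10 to 0.27 for C1qa, -0.10 to 0.50 for C1qb, -0.27 to 0.38 for C1qc, -0.24 to 0.23 for Cfp and -0.31 to 0.055 for Cfb. For the difference between the ages they were -0.34 to 0.11 for C1qa and -0.58 to 0.080 for Cfp. For age in TG mice they were -0.21 to 0.23 for C1qa, -0.055 to 0.21 for C1qb, -0.32 to 0.37 for C1qc, -0.29 to 0.0060 for C6 and -0.57 to 0.086 for Cfp. For age in WT mice they were -0.059 to 0.32 for C1qa, -0.23 to 0.24 for Cfp, -0.092 to 0.27 for Cfb and -0.11 to 0.66 for Vsig4. With the replicate block and 1 array left out, some of these values kept their sign and others did not. At 12 months C1qc then ran from -0.40 to -0.20, Cfp from -0.44 to -0.064 and C1qa from -0.13 to 0.069. With age in WT mice Vsig4 then ran from 0.056 to 0.50 and Cfb from -0.19 to 0.38. The cause of the sign changes was not tested. Vsig4 at 12 months ranged from 1.18 to 1.91 with the offset (64 and 1) and from 1.27 to 2.04 with 1 array left out; it was not among the genes past the filter at the 75th percentile. All values that changed sign had a size of at most 0.302 in the first place, and 2 mice per group limit what could be called.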
